A study of Mus musculus with 13 samples.

Results

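The 9 genes described here encode membrane carriers of neutral amino acids that do not belong to the SLC7 family: Slc38a1, Slc38a2, Slc38a4, Slc38a3, Slc36a1, Slc1a4, Slc1a5, Slc6a9 and Slc43a1. The set was proposed with earlier results of these data known; its probes were then taken by the gene name of the array design, a rule that uses no measured value, and 14 of the 55681 probes on the array carried 1 of these names. Gene expression was measured in the gastrocnemius, a calf muscle, of male C57BL/6J mice. The groups were 6 wild-type mice and 7 littermates that carried a UCP1 transgene. UCP1, known from brown fat, uncouples respiration from ATP synthesis in mitochondria, and the study concerns its overexpression in skeletal muscle and a shortage of amino acids there; the sources used here do not name the transgene's promoter or the number of founder lines. Both groups received a purified low fat diet for 12 weeks, the age is given as 12 weeks, and 1 array was run per mouse from 200 ng of total RNA.

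Amino acid carriers differ in what they move and in what drives them. Sodium-coupled carriers of the SLC38, SLC1 and SLC6 families can accumulate amino acids in a cell against a gradient, proton-coupled carriers of the SLC36 family can release them from lysosomes, and SLC43 carriers let large neutral amino acids pass down their gradient. Muscle is the largest store of free glutamine in the body. The system A carrier encoded by Slc38a2 is known to rise in cultured cells deprived of amino acids, a response that runs in part through the transcription factor ATF4.

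Each value below is a log2 ratio of the mouse sample (Cy5 dye) over a common reference pool (Cy3 dye) on the same array, so 0 means as much signal as in the pool. A difference is the mean of the transgenic samples minus the mean of the wild-type samples on that log2 scale, and every adjusted p comes from the limma fit with Benjamini-Hochberg adjustment over 22716 probes. To be measured, a probe had to exceed background clearly, by the scanner's own flag, in the Cy5 channel of 6 or more of the 13 arrays; between 20643 and 24036 probes did so per array, and none was saturated. The number of arrays limits the precision. All 8 listed markers of skeletal muscle fibres were measured. The check of the transgene, Ucp1, gave a difference of 3.23 ± 0.50 (SE, adjusted p = 5e-05 in limma). In the library labelled wild type 4 the Ucp1 probe read 0.45, which goes against its label since the transgenic samples ran from -0.20 to 0.85, while the other 5 wild-type samples lay between -4.23 and -2.82. The mean log2 ratio of the brown adipocyte markers Cidea and Dio2 was 1.00 in that library, against -0.43 to 0.15 in the transgenic samples. That was the highest wild-type value, and the lowest was -1.29. The same library read 0.65 on Slc38a4 and -0.83 and -0.74 on the Slc6a9 probes, outside the transgenic ranges. The source of its Ucp1 reading was not tested. Without this library the Ucp1 difference was 3.91 (adjusted p = 1.8e-11 in limma), and the values of the transporters without it stand beside each result.

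Of the 14 probes, 11 were measured, and they covered all 9 genes; 10 of them were well above background on all 13 arrays. The transporters did not move as a group. Slc6a9, a glycine carrier, rose on each of its probes, Slc38a4, a system A carrier, fell, and Slc1a5, an exchanger of glutamine and other neutral amino acids, rose on 1 of its 2 probes. The other 6 genes did not pass the threshold of 0.05 on the adjusted p. Among the 11 probes, 3 were higher and 1 was lower, against 31.8% of all measured probes past the threshold (16% higher and 15.8% lower). The groups did not overlap on 3 of the 11 probes, against 14.2% of all measured probes, and the same 3 probes passed the threshold with a difference of at least 1, against 1.57%. These are the probe of Slc38a4 and both probes of Slc6a9, which share 51 of their 60 bases and are not separate readings. The median difference was 0.15 over the 11 probes and -0.0023 over all 22716. Counts over so few probes are given as a description.

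**Figure D1:**
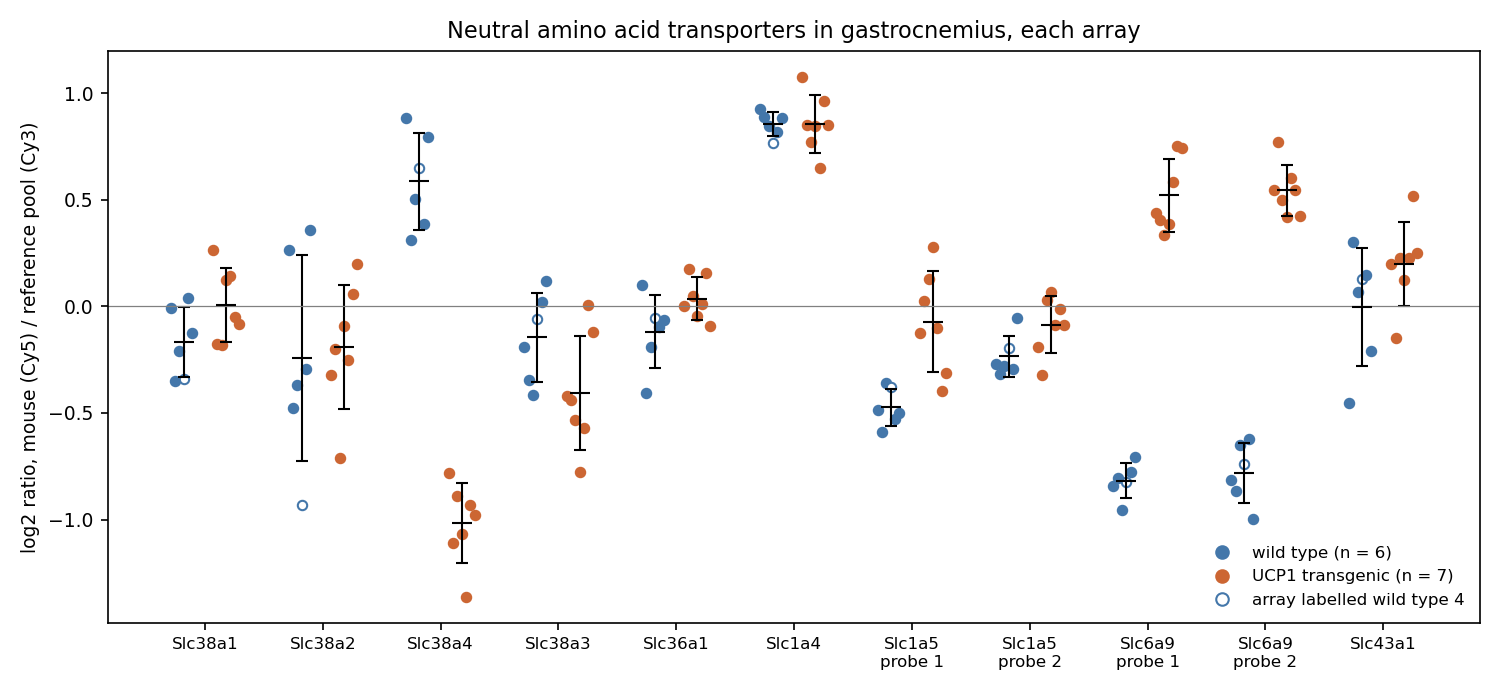
Log2 ratio of mouse sample over reference pool (vertical axis) for the 11 measured probes of the 9 transporters, 1 point per array, with the mean and SD of the 6 wild-type and 7 UCP1 transgenic samples; the open circle is the library labelled wild type 4. The groups are apart for Slc38a4, with wild type above, and for both probes of Slc6a9, with wild type below, and they overlap on the other 8 probes.

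Promoter windows from RefSeq (GRCm38.p6, 250 bases before to 50 after a transcript start) were at hand for 6 of the 9 genes, as 10 windows: Slc38a2, Slc38a4, Slc36a1, Slc1a4, Slc6a9 and Slc43a1. Both strands were searched for TGATGNAA, the core of the element that C/EBP and ATF factors share, and for TGACG, the core of the cAMP response element, and the motifs do not overlap in any of these windows. TGATGNAA was found in 1 of the 10 windows, that of Slc1a4, and in 3.97% of 32851 windows of all genes. TGACG was found in 5 of the 10, those of Slc38a2, Slc36a1, Slc1a4 and 1 each of Slc38a4 and Slc6a9, and in 20.8% of all windows. A window is printed below for a gene that rose, one that fell and one that did not pass the threshold; each is in the direction of the gene, with matches in capitals, and for Slc6a9 and Slc38a4 the window with a match was chosen. A match is a string of letters and not a known binding site. The element known in Slc38a2 lies in its first intron, outside such a window.
Slc6a9, chr4:117849100-117849399, plus strand: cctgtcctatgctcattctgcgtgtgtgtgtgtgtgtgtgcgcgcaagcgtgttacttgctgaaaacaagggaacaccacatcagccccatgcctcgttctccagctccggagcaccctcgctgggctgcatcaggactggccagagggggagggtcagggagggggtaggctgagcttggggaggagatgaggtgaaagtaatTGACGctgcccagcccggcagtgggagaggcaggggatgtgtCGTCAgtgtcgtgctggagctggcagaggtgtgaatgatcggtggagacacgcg
Slc38a4, chr15:97031164-97031463, minus strand: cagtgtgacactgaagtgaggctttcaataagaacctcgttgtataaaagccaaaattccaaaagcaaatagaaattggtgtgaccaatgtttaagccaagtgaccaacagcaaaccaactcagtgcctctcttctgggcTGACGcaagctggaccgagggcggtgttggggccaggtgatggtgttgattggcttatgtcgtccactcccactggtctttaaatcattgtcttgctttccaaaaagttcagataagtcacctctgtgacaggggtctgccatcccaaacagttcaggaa
Slc1a4, chr11:20332664-20332963, minus strand: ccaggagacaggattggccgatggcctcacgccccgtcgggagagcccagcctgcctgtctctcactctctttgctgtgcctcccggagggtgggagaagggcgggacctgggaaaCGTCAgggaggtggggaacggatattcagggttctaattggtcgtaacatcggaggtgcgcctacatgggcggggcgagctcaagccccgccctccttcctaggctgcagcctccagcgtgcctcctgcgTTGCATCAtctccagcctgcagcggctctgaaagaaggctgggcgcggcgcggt
The window of Slc6a9 holds TGACG at bases -46 to -42 and its reverse complement at -4 to 1, counted from the transcript start. That of Slc38a4 holds it at -110 to -106. In Slc1a4, whose probe read a difference of 0.004, the reverse complement of TGATGNAA spans bases -4 to 4 and that of TGACG -134 to -130. The other windows of Slc6a9 and Slc38a4 hold neither motif. Since the printed windows of these genes were chosen for a match, no relation between matches and direction can be read from them.

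Slc38a4 encodes SNAT4, a sodium-coupled system A carrier of alanine and other small neutral amino acids, and it was the only one of the 9 genes past the threshold on the lower side in the limma fit without a block. Its probe (A_52_P48569) lies at chr15:96825482-96825541 on the minus strand in mm9, the build of the array files, and starts with ctaacctggaagtatccacttgtgtagtta, shown because the fall rests on this 1 probe. Where a probe lies relative to exons was not analysed here, since the gene annotation used is of another build. In the 6 wild-type samples the log2 ratio had a lowest value of 0.31, a median of 0.58 and a highest value of 0.88. In the 7 transgenic samples it had a lowest value of -1.36, a median of -0.98 and a highest value of -0.78. Every transgenic sample thus lay below the reference pool and every wild-type sample above it, with a gap between the groups wider than the range of either. The means were 0.59 ± 0.23 (SD, n = 6) and -1.02 ± 0.19 (SD, n = 7). Slc38a4 fell by 1.60 on the log2 scale (SE 0.10), 3.04-fold, with a 95% interval of -1.82 to -1.39 and an adjusted p of 2.5e-10 in limma. Slides were told apart by the barcode in the name of each scan, and not by the sample labels. Each slide held samples of both groups, and the difference within slides 1 to 4 was -1.83, -1.30, -1.86 and -1.55. A value within a slide rests on only 1 or 2 arrays per group, and on slide 3 the only wild-type array is the library labelled wild type 4. Without the library labelled wild type 4 it was -1.59 (adjusted p = 1.5e-09 in limma), close to the value over all 13 arrays. In bulk muscle, fewer cells of a type and less RNA per cell cannot be told apart. Of the 8 muscle fibre markers, each on its brightest probe, 4 were lower, 2 were higher and 2 did not pass, against 32.7% of 17257 genes past the threshold; their mean log2 ratio per array was -0.03 to 0.21 in wild type and -0.21 to 0.09 in the transgenic samples, and their part in the fall of Slc38a4 was not tested.

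Slc38a2 encodes SNAT2, the system A carrier best known for its induction when cells lack amino acids. No change of it was detected here. Its probe (A_51_P458384, chr15:96518491-96518550, minus strand, mm9) read -0.93 at the lowest, -0.33 at the median and 0.36 at the highest in wild type. The transgenic samples read -0.71, -0.20 and 0.20 in the same order, entirely inside the wild-type range. The difference was 0.05 ± 0.17 (SE, adjusted p = 0.85 in limma), with a 95% interval of -0.31 to 0.41. Slc38a2 varied more between mice of 1 group than the other transporters did: its pooled SD was 0.39, above that of 99% of 22572 probes, whose median was 0.14. The lowest wild-type value was that of the library labelled wild type 4, without which the difference was -0.08 (adjusted p = 0.72 in limma), so its sign turned. Within slides 1 to 4 the difference was -0.52, -0.29, 0.76 and 0.10, where the 0.76 of slide 3 rests on that library. With median centring of each array in place of loess it was 0.34.

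Slc38a1 encodes SNAT1, another system A carrier, which also moves glutamine. The probe that was measured (A_51_P507053, chr15:96406793-96406852, minus strand, mm9) was dim: it was well above background on 3 of 6 wild-type and 7 of 7 transgenic arrays, at Cy5 signals of 51.2 to 91.8. Wild type read -0.35 at the lowest, -0.17 at the median and 0.04 at the highest. The transgenic samples read -0.18, -0.05 and 0.26, and 3 of the 7 lay above every wild-type sample. The difference of 0.17 ± 0.09 (SE) did not pass the threshold (adjusted p = 0.15 in limma, 95% interval -0.01 to 0.35). With Agilent's own log ratios in place of the normexp and loess values it was 0.61 (adjusted p = 0.075 in limma), the widest gap between scalings among the 11 probes. Within slides 1 to 4 it was 0.05, 0.10, 0.47 and -0.02. Without the library labelled wild type 4 it was 0.14 (adjusted p = 0.28 in limma). The other Slc38a1 probes, A_52_P232648 and A_55_P2161640, were well above background on 0 arrays, with Cy5 signals of 30.4 to 40.2 and 31.1 to 52.7. Neither group stood clearly above background on these probes, and no difference is read from them.

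These system A genes are consecutive protein-coding genes on chromosome 15, in the order Slc38a1, Slc38a2, Slc38a4, in RefSeq. Set side by side, their differences were 0.17, 0.05 and -1.60. Slc38a2 exceeded Slc38a4 by 1.66 and Slc38a1 exceeded it by 1.78, while Slc38a1 and Slc38a2 were 0.12 apart; these pairs were chosen after the values were seen, so the values are given as a description with no test.

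Slc38a3 encodes SNAT3, a system N carrier that couples the movement of glutamine, histidine and asparagine to sodium and protons. It read lower in most transgenic samples without passing the threshold. Its probe (A_51_P139030, chr9:107553825-107553884, minus strand, mm9) gave -0.42 at the lowest, -0.13 at the median and 0.12 at the highest in wild type, and -0.77, -0.44 and 0.01 in the transgenic samples. In 5 of the 7 transgenic samples it was below every wild-type sample, and the other 2 overlapped with them. The difference was -0.26 ± 0.11 (SE, adjusted p = 0.09 in limma, 95% interval -0.50 to -0.02). It was negative within each slide, at -0.24, -0.15, -0.61 and -0.13, and with slide as a fixed block it passed (-0.26, adjusted p = 0.012 in limma), as it did with slide as a random block (adjusted p = 0.042 in limma). It also passed without wild type 3, transgenic 6 or transgenic 7 (-0.32, -0.33 and -0.31). With median centring it was -0.05, and without the library labelled wild type 4 it was -0.24 (adjusted p = 0.14 in limma).

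Slc6a9 encodes GLYT1, the sodium- and chloride-coupled glycine carrier, and was the transporter that rose most. Its 2 probes (A_55_P1973838 at chr4:117541842-117541901 and A_55_P2010788 at chr4:117541851-117541910, plus strand, mm9) share 51 of their 60 bases, so they read nearly the same stretch of RNA and are not independent. Their first 30 bases are printed to show this shift, with the bases that both probes hold in capitals.
A_55_P1973838: gcccagtgtGTGCAGAACTAGGGTTTTAAA
A_55_P2010788: GTGCAGAACTAGGGTTTTAAAGTCCGTAGG
The first probe read -0.95 at the lowest, -0.81 at the median and -0.70 at the highest in wild type, and 0.33, 0.44 and 0.75 in the transgenic samples. The second read -0.9996, -0.78 and -0.62 in wild type, and 0.42, 0.54 and 0.77 in the transgenic samples. All 6 wild-type samples were below the reference pool and all 7 transgenic samples above it on each probe, and the groups lay about 1 log2 unit apart at their closest. Slc6a9 rose by 1.34 ± 0.08 (SE) on the first probe, 2.53-fold, with a 95% interval of 1.18 to 1.50 and an adjusted p of 7.9e-11 in limma. On the second probe the rise was 1.33 ± 0.08 (SE), 2.51-fold, with a 95% interval of 1.17 to 1.48 and an adjusted p of 5.3e-11 in limma. The gap of 0.01 between the probes was within the spread between samples (exact permutation p = 0.918, adjusted 0.918 over 2 probe pairs). The rise was present within every slide, at 1.21 to 1.49 on the first probe and 1.25 to 1.47 on the second. Without the library labelled wild type 4 it was 1.34 and 1.33, with adjusted p of 4.9e-10 and 2.9e-10 in limma.

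Slc6a9 is also known from red cell precursors, which use glycine for heme synthesis, and markers of erythroid cells were higher in the transgenic samples. All 3 listed, Hba-a1, Hbb-b1 and Alas2, passed the threshold as higher, against 16.7% of all genes, with a median difference of 0.62. Their mean log2 ratio per array ran from -0.87 to -0.15 in wild type and from -0.41 to 0.81 in the transgenic samples. The part of erythroid RNA in the rise of Slc6a9 was not tested.

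Slc1a5 encodes ASCT2, a sodium-dependent exchanger of alanine, serine, cysteine and glutamine, and its 2 probes gave different calls. They lie 272 bases apart on the plus strand of chromosome 7 in mm9, A_51_P453475 at chr7:17383359-17383418 and A_55_P2136318 at chr7:17383027-17383086. The start of each is printed to show that they are distinct sequences.
A_51_P453475: cctaccctctcaggaaatgggttgtcctgt
A_55_P2136318: aacagtaccagggacccaccggggactcca
On the first, brighter probe wild type read -0.59 at the lowest, -0.49 at the median and -0.36 at the highest, and the transgenic samples read -0.40, -0.10 and 0.28. Of the 7 transgenic samples, 6 lay above every wild-type sample, and the remaining sample overlapped with them. Slc1a5 rose on this probe by 0.40 ± 0.09 (SE), 1.32-fold, with a 95% interval of 0.21 to 0.60 and an adjusted p of 0.0023 in limma. On the second probe wild type read -0.32, -0.27 and -0.05 and the transgenic samples -0.32, -0.09 and 0.07, and the groups overlapped over most of the wild-type range. The difference there was 0.15 ± 0.07 (SE, adjusted p = 0.12 in limma, 95% interval -0.001 to 0.30). The 2 probes differed by 0.25 in their group difference, with an exact permutation p of 0.0466 and 0.0932 after adjustment over 2 probe pairs. The other pair is that of Slc6a9, whose probes share 51 of their 60 bases and could hardly differ. The adjusted value therefore cannot decide whether the Slc1a5 probes changed unequally.

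The Slc1a5 call depended on the scaling. With median centring in place of loess the first probe read 0.61 but did not pass (adjusted p = 0.097 in limma), and with Agilent's own log ratios the second probe read 0.34 and passed (adjusted p = 0.010 in limma). The second probe also passed without transgenic 2, at 0.19 (adjusted p = 0.041 in limma). Within slides 1 to 4 the differences were 0.44, 0.60, 0.47 and 0.16 on the first probe and 0.01, 0.33, 0.19 and 0.12 on the second, all positive. Without the library labelled wild type 4 they were 0.42 (adjusted p = 0.003 in limma) and 0.16 (adjusted p = 0.14 in limma).

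Slc1a4 encodes ASCT1, the closest relative of Slc1a5, an exchanger of alanine, serine and cysteine that lacks glutamine among its main substrates. Its probe (A_55_P2109589, chr11:20202615-20202674, minus strand, mm9) read 0.77 at the lowest, 0.86 at the median and 0.92 at the highest in wild type, and 0.65, 0.85 and 1.08 in the transgenic samples. The wild-type samples lay within the transgenic range, and the means were 0.85 ± 0.06 (SD, n = 6) and 0.86 ± 0.14 (SD, n = 7). The difference was 0.004 ± 0.07 (SE, adjusted p = 0.98 in limma), with a 95% interval of -0.14 to 0.15, which leaves room for a small change in either direction. Within slides 1 to 4 it was 0.04, -0.09, -0.02 and 0.06, with median centring it was 0.24, and without the library labelled wild type 4 it was -0.01. Beside it, Slc1a5 read 0.40 on its brighter probe and 0.15 on the other, a comparison made after the values were seen and given with no test.

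Slc36a1 encodes PAT1, a proton-coupled carrier of glycine, alanine and proline that is found on lysosomes. Of its 2 probes, A_55_P1969820 (chr11:55047345-55047404, plus strand, mm9) was measured. It read -0.41 at the lowest, -0.08 at the median and 0.10 at the highest in wild type, and -0.09, 0.01 and 0.18 in the transgenic samples, and the groups overlapped. Within slides 1 to 4 the difference was -0.01, 0.34, 0.04 and 0.11. The difference of 0.15 ± 0.08 (SE) did not pass (adjusted p = 0.14 in limma, 95% interval -0.01 to 0.31). With Agilent's own log ratios it was 0.37 (adjusted p = 0.065 in limma), and without the library labelled wild type 4 it was 0.17 (adjusted p = 0.14 in limma). The other probe, A_55_P2000269, was well above background on 1 wild-type and 1 transgenic array, at Cy5 signals of 35.4 to 61.4, and did not reach the filter; in the fit without a filter it read -0.05 (adjusted p = 0.75 in limma).

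Slc43a1 encodes LAT3, which lets leucine, isoleucine, valine, phenylalanine and methionine pass without sodium. On its probe (A_55_P2019690, chr2:84703578-84703637, plus strand, mm9) wild type read -0.45 at the lowest, 0.10 at the median and 0.30 at the highest, and the transgenic samples read -0.15, 0.23 and 0.52, with overlap over most of both ranges. The difference was 0.20 ± 0.11 (SE, adjusted p = 0.18 in limma, 95% interval -0.03 to 0.44). It was positive within every slide, at 0.48, 0.04, 0.05 and 0.42, and with slide as a fixed block it passed, at 0.26 (adjusted p = 0.041 in limma). With median centring it was 0.38. Without the library labelled wild type 4 it was 0.23 (adjusted p = 0.16 in limma).

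**Figure D2:**
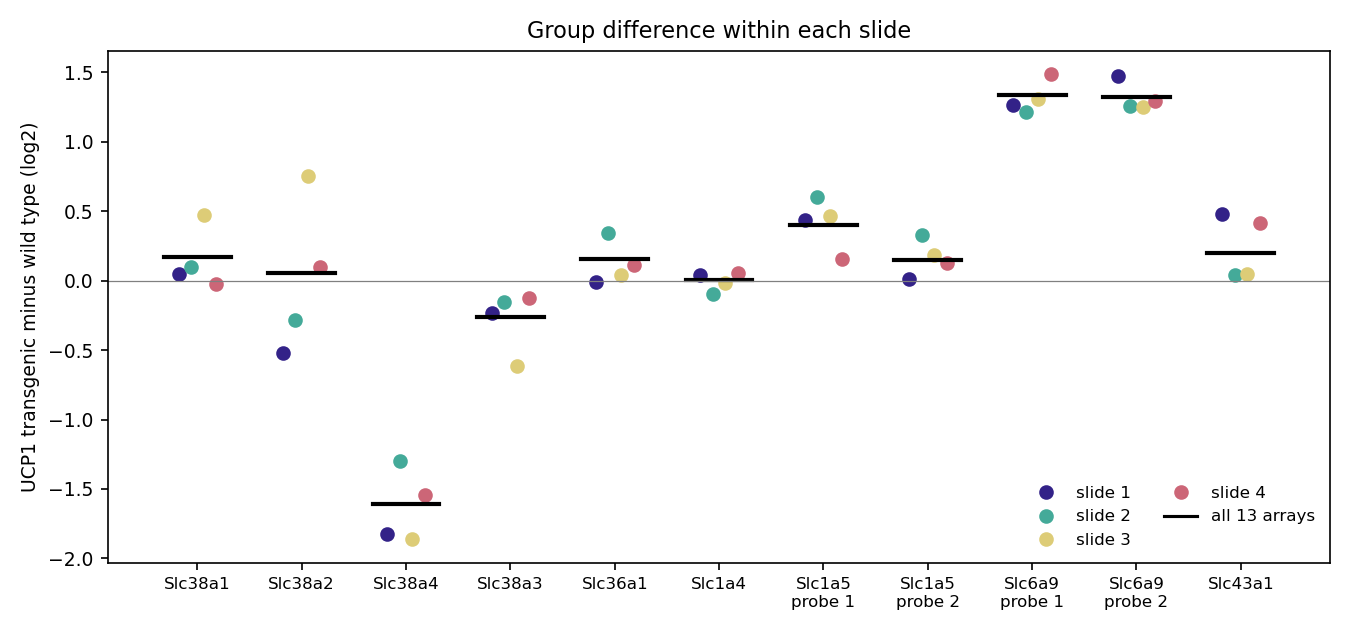
Difference between transgenic and wild-type means (vertical axis, log2) within each of the 4 array slides, as coloured points, with a bar at the difference over all 13 arrays, for the 11 measured probes. Slc38a4 lies between -1.86 and -1.30 and the Slc6a9 probes between 1.21 and 1.49 on every slide, whereas Slc38a2 spreads from -0.52 to 0.76.

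With median centring in place of loess the median of all measured probes shifted to 0.13, and 76.8% of the calls were higher instead of 50.2%, so small positive differences there are to be read against that shift. Over all alternative scalings, median centring included, and over the filters and blocks, Slc38a4 stayed between -1.79 and -1.37. The Slc6a9 probes stayed between 1.30 and 1.67. When each array was left out in turn, Slc38a4 ran from -1.66 to -1.55 and the Slc6a9 probes from 1.28 to 1.37. All of these passed the threshold each time.

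**Figure D3:**
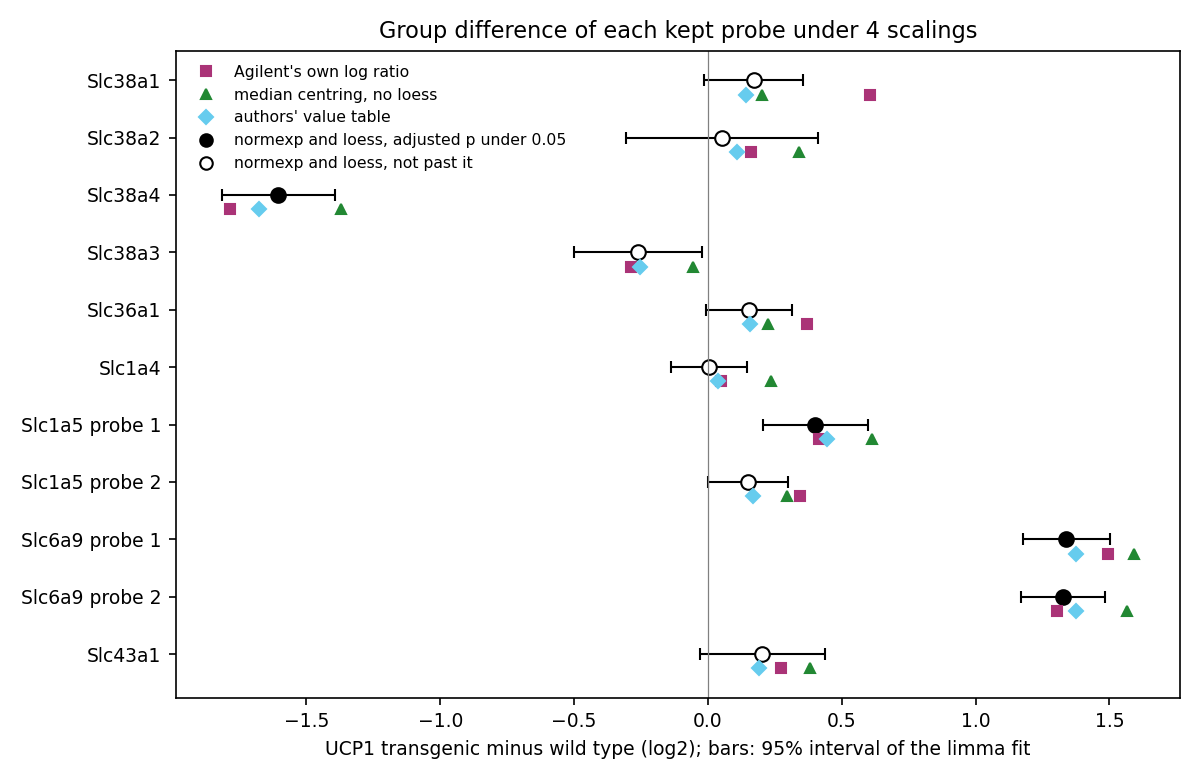
Difference between transgenic and wild-type samples (horizontal axis, log2) for each measured probe: circles with 95% intervals from the limma fit on normexp and loess values, filled where the adjusted p is under 0.05, and squares, triangles and diamonds for the same difference under 3 other scalings. Slc38a4 and both Slc6a9 probes lie far from 0 under each scaling, while Slc38a1 runs from 0.17 to 0.61 between the main scaling and Agilent's own log ratio.

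Of 23 other genes listed for carriers of small and neutral amino acids in the same families, 11 were measured on their brightest probe. Of these, 3 were higher, 1 was lower and 7 did not pass, with a median difference of 0.02; over all 17257 genes 32.7% passed, 16.7% higher and 16% lower, so these counts lie near the share over all genes. Slc36a2, a proton-coupled carrier of glycine, alanine and proline that lies next to Slc36a1, rose by 0.62 ± 0.14 (SE, adjusted p = 0.002 in limma). Slc43a2, which encodes the LAT4 relative of Slc43a1, rose by 0.43 ± 0.07 (SE, adjusted p = 9.9e-05 in limma). Slc6a6, the taurine carrier, fell by 0.38 (SE 0.11, adjusted p = 0.014 in limma). With median centring 1 of the 11 passed. Among the acidic carriers of the SLC1 family, 2 of 5 were measured and 1 passed: Slc1a3, a glutamate carrier, read 0.33 ± 0.08 higher (SE, adjusted p = 0.0031 in limma). Its probe was well above background on 2 of 6 wild-type and 7 of 7 transgenic arrays, so it reached the filter through the group in which it was brighter. No acidic carrier passed with median centring or with the filter on all 13 arrays.

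The SLC7 and SLC3 carriers are exchangers, cationic carriers and their partner subunits. Of 17 listed, 10 were measured, 6 were higher and 1 was lower. Over all 17257 genes 32.7% passed, 16.7% higher and 16% lower. Slc7a3 and Slc7a11, both among the 6, were well above background on 0 of 6 wild-type and 7 of 7 transgenic arrays and so reached the filter only through the group in which they were brighter. With the filter on all 13 arrays 6 were measured, 3 were higher and 1 was lower, with a median difference of 0.77. Under that filter 36.2% of all probes passed. Slc7a5, the large neutral amino acid exchanger LAT1, rose by 1.84 ± 0.10 (SE, adjusted p = 1.6e-11 in limma) on its brightest probe, while another Slc7a5 probe read -0.17 (adjusted p = 0.16 in limma). Slc7a3, a carrier of cationic amino acids, was at least 2.96-fold higher in the transgenic samples (adjusted p = 2.8e-10 in limma). That bound takes the lowest signal well above background in place of the unmeasured level, and without a dye swap it is open to dye bias. Slc7a8, the LAT2 exchanger, fell by 0.52 (SE 0.10, adjusted p = 0.00041 in limma).

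Of 26 genes of amino acid sensing at the lysosome, where Slc36a1 also resides, 21 were measured, 3 were higher, 3 were lower and 15 did not pass, with a median difference of 0.07, a share close to the 32.7% of all genes past the threshold. Sesn2, which encodes a leucine sensor that restrains mTORC1, rose by 0.87 ± 0.09 (SE, adjusted p = 6.4e-07 in limma). Mlst8, a subunit of mTOR complexes, rose by 0.47 ± 0.07 (SE, adjusted p = 2e-05 in limma). Rragd, a Rag GTPase that recruits mTORC1 to the lysosome, fell by 0.95 (SE 0.10, adjusted p = 8e-07 in limma). Gatsl2, a relative of the arginine sensor of mTORC1, fell by 0.70 (SE 0.07, adjusted p = 4.8e-07 in limma). With median centring 2 were higher and 1 was lower.

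Transcripts of ATF4, its partners and its targets were higher in most cases: all 15 listed were measured, 13 were higher, 0 were lower and 2 did not pass, with a median difference of 1.98. Over all 17257 genes 16.7% were higher and 16% were lower. The list was drawn up with earlier results of these samples known and is no independent evidence of its direction. Trib3, a pseudokinase induced by ATF4, rose by 4.58 ± 0.12 (SE, adjusted p = 8.8e-16 in limma). Psat1, an enzyme of serine synthesis, rose by 4.41 ± 0.08 (SE, adjusted p = 2.9e-18 in limma). Beside these values, the rise of Slc6a9 was 1.34 and that of Slc1a5 on its brighter probe 0.40, while Slc38a2 stood at 0.05.

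**Figure D4:**
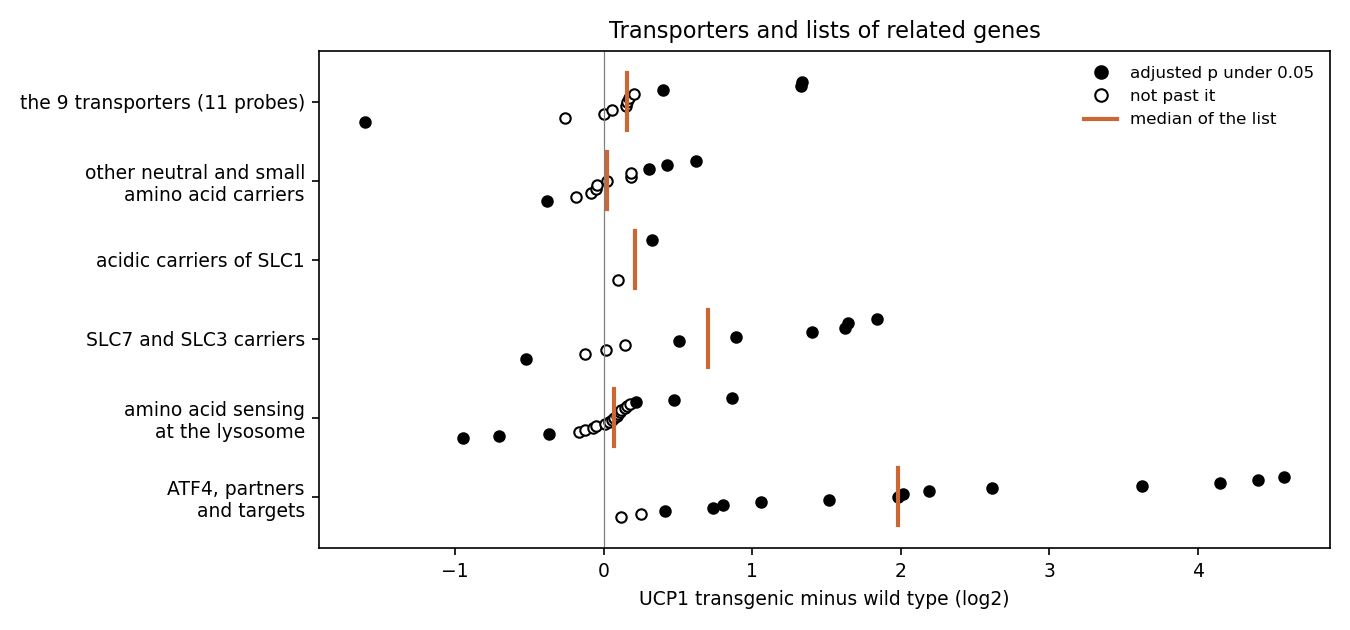
Difference between transgenic and wild-type samples (horizontal axis, log2) for the 11 probes of the 9 transporters and, below them, for the brightest probe of each measured gene in 5 lists of related genes; filled points passed an adjusted p of 0.05 in limma and the bar marks the median. The transporters spread from -1.60 to 1.34 around a median of 0.15, and the medians of the lists run from 0.02 for other neutral carriers to 1.98 for ATF4 and its targets.

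Markers of other cell types are read against 32.7% of all genes past the threshold and 16.7% higher. Of the white adipocyte markers, 6 of 7 were measured and all 6 were higher, with a median difference of 0.86; Lep did not reach the filter. With median centring 4 of the 6 passed, and 4 to 6 passed when each array was left out in turn. Their mean log2 ratio per array ran from -0.75 to -0.04 in wild type and from -0.26 to 0.47 in the transgenic samples, and the highest wild-type value was that of the library labelled wild type 4. Among Schwann cell markers 2 of 4 were higher, among fibroblast markers 1 of 4 was higher, and among brown adipocyte markers 1 of 2 measured was higher. Among endothelial markers 1 of 5 was lower, among macrophage markers 1 of 4 measured was lower, and 0 of 2 satellite cell and 0 of 4 smooth muscle markers passed in limma. Counts of 1 or 2 in lists this short cannot be set apart from the share over all genes. The part of these cells in the rise of Slc6a9 and Slc1a5 and in the fall of Slc38a4 was not tested.

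For the probes with a difference of at least 1, the genes nearest in pattern were sought by the mean absolute distance between log2 ratios, each centred over the 13 arrays, among 17133 genes. Asb2, a substrate receptor of a ubiquitin ligase in muscle, was nearest to Slc38a4 at a distance of 0.14, against a median of 0.80 over all genes, and its own difference was -1.72. The predicted gene Gm6548 was nearest to the first Slc6a9 probe, at a distance of 0.08 with a difference of 1.37. Ern1, which encodes the endoplasmic reticulum stress sensor IRE1, was also among the 3 nearest, at 0.10 with a difference of 1.36; the median distance was 0.67. Clcn3, which encodes a chloride and proton exchanger of endosomes, was nearest to the second probe, at 0.10 with a difference of 1.29. The other genes among the 3 nearest are named on the array only by identifiers, and a small distance on 13 arrays is a description of these samples. The Slc6a9 probes read nearly the same stretch of RNA, yet no gene was among the 3 nearest to both. Which genes are named is thus not stable.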

How the data were processed

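RNA of 13 mice was hybridised to 2-colour Agilent arrays with the mouse in Cy5 and a common pool in Cy3, with no dye swap, per the labels. The deposited scanner files hold spot and background intensity on a linear scale, Agilent's log10 ratio, and other values (flags for well above background, saturation, outliers and controls), per the file headers; they were written by Agilent Feature Extraction 10.5.1.1, which the submitters' processing notes also name. The deposited value table of the authors (25583 rows) was taken as log2 intensities: each column has a median of 7.58 and follows its array's Cy5 signal at 0.992 to 0.998 and the Cy3 signal at 0.988 to 0.992. How its background was corrected and how it was normalized is not given in the sources used, and it served as an alternative only. All its per-sample columns were mapped.

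Mean signals were corrected by normexp with an offset of 50 on all 62976 spots and normalized by loess within each array (limma 3.58.1, R 4.3.3). The 3671 controls and 278 to 377 outlier spots per array were left out, and spots of 1 probe were averaged. Probes flagged as well above background in the Cy5 channel of 6 or more arrays were kept (22716), fitted with lmFit and eBayes without covariates, two-sided, and adjusted by Benjamini-Hochberg; 7222 passed 0.05. Each probe of the transporters stands alone, and other genes are represented by their brightest kept probe. The 2 pairs of probes of 1 gene were compared by two-sided exact permutation tests over 1716 labellings. The transporters and gene lists were chosen with earlier results of these data known, and all 9 transporters are named, with the 2 largest changes in each direction per list and the 3 nearest patterns. The fit was tested on simulated data. Alternatives were 3 other scalings, Cy5 alone, 2 other filters, outlier spots kept, brightest probes alone, blocks for slide and replicate number, and each array left out.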

Additional observations from a re-analysis of the deposited data

Results flagged for a closer look

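In 24 groups tested for a sample far from the others, over the transporter probes and Ucp1, 1 stood out; the limit is Dixon's 95% critical value, so about 5% of groups pass it by chance. It was Ucp1 in the library labelled wild type 4, at 0.45 against -4.23 to -2.82 in the other 5 wild-type samples, a gap of 0.699 of the whole range of the group. For none of the 11 transporter probes did a sample stand apart by this measure in either group.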

How the results depend on the processing

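Over 11 other settings (10 for probes missing from one of them), Slc38a4 ran from -1.79 to -1.37 and the Slc6a9 probes from 1.30 to 1.67, each past the threshold. Slc1a5 on its brighter probe ran from 0.39 to 0.61 and missed the threshold with median centring. With median centring 1667 of all probes passed in place of 7222, and 1 other neutral carrier, 0 acidic SLC1 carriers and 3 sensing genes passed in place of 4, 1 and 6; the cause was not tested. With the filter on all 13 arrays, which tests fewer genes, 0 acidic and 4 SLC7 and SLC3 carriers passed in place of 1 and 7. With slide as a fixed block or a random block, and with the replicate number as a block, 2 transporter probes were lower in place of 1, the added one being Slc38a3. Replicate numbers did not pair the samples: deviations of same-numbered samples correlated at -0.23 to 0.22, and 0 of 6 wild-type samples matched their own number best. With the replicate block, 30.2% of all probes passed, Slc38a3 read -0.31 (adjusted p = 0.023 in limma) and Slc38a2 turned to -0.011. Only the transgenic group has a replicate 7, so this block takes that array out of the comparison. The differences are then those without transgenic 7.

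Leaving out each array in turn gave -1.66 to -1.55 for Slc38a4, 1.28 to 1.37 for the Slc6a9 probes, and 4 to 5 transporter probes past the threshold, 3 to 4 higher and 1 to 2 lower, and 6553 to 7215 probes in all. It gave 4 to 6 other neutral carriers and 6 to 7 sensing genes, with 1 acidic carrier, 7 SLC7 and SLC3 carriers and 13 ATF4 genes each time. Slc38a2 ran from -0.084 to 0.17, below 0 without wild type 4 or transgenic 7, and Slc1a4 from -0.033 to 0.039, below 0 without wild type 4, wild type 5, transgenic 1 or transgenic 6. Ucp1 ran from 2.97 to 3.91. Dim signal limits Slc38a1 and Slc36a1, of whose 5 probes 3 could not be measured.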
